A study of Mus musculus with 27 samples.

Results

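The genes described here are 10 receptor tyrosine kinases for growth factors and matrix that fibroblasts are known to use: Pdgfra, Pdgfrb, Fgfr1, Fgfr2, Egfr, Igf1r, Insr, Met, Axl and Ddr2. They were taken by gene name, or by genome position where the deposited tables carried no names, and all 10 had a value in every library. They stood among 19638 genes with a value in all libraries of the total RNA experiment, 21535 in the siRNA experiment and 21691 in the inhibitor experiment. Expression was measured by RNA-seq in 27 libraries of immortalized mouse embryonic fibroblasts (iMEFs) that carry a conditional knockout (cKO) of Setdb1, a histone H3 lysine 9 methyltransferase. By the methods of the study, the line was recloned from single cells and a clone was picked by western blot for its loss of Setdb1 after 4-hydroxytamoxifen (4OHT), the drug that starts the deletion.

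All 12 groups, controls included, were Setdb1 cKO iMEFs. The total RNA experiment held untreated cells, cells at day 5 after the start of a 4-day 4OHT treatment ("4OHT day 5") and cells cultured for more than 2 weeks after 4OHT by the labels ("long-term KO", a shorter minimum in the methods), with 3 libraries each. In the siRNA experiment, cells were transfected with control siRNA (siCtrl) or with siRNA against Dnmt1 (siDnmt1), the maintenance DNA methyltransferase. Both transfections were also made with 4OHT added at day 0, all cells were harvested at day 6, and each of the 4 groups had 2 libraries. The inhibitor experiment compared untreated cells, 150 nM of the histone deacetylase inhibitor TSA for 24 h, 1 µM of the MEK inhibitor PD0325901 (PD0325091 in the sample labels) for 24 h, cells at day 6 after 4OHT, and 4OHT at day 6 with 1 µM PD0325901 for the last 24 h, with 2 libraries each. No group received 4OHT without the conditional alleles, so an effect of the drug and an effect of the deletion cannot be told apart. The labels do not say that replicates came from separate cultures, so p-values measure the spread between libraries, which may be technical.

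Receptor tyrosine kinases are membrane proteins that act as dimers, formed on ligand binding in many families and already present without ligand in others such as Insr, Igf1r and Ddr2. Ligand makes them phosphorylate each other on tyrosines and recruit adaptors such as Grb2, Shc1 and Frs2. From there the signal runs through RAS, RAF, MEK and ERK and through phosphoinositide 3-kinase, and it is damped by phosphatases, ubiquitin ligases such as Cbl and feedback inhibitors such as Errfi1. In fibroblasts the PDGF receptors are the classical mesenchymal mitogen receptors, and Pdgfra and Pdgfrb are widely used to mark mesenchymal cells.

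Values are FPKM (fragments scaled to the length of the transcript and to the mapped fragments of the library), so levels can be set side by side between genes of one experiment. Levels were never tested across the 3 experiments, and the total RNA libraries were depleted of ribosomal RNA, a step the labels give for no other library. A difference was called when the Benjamini-Hochberg adjusted p of limma, fitted on log2(FPKM + 0.1) over all genes tested in an experiment, was under 0.05. Fold changes are on that scale and are given with their standard error (SE). Because these are bulk samples, fewer cells of a kind and less RNA per cell cannot be told apart.

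Several checks bear on the libraries. Dnmt1 lay between 73.4 and 80.5 FPKM in siCtrl and between 10.6 and 12.2 FPKM in siDnmt1 libraries. Dusp6, a phosphatase gene induced by ERK, fell from between 44.5 and 46.6 FPKM to between 3.94 and 9.82 FPKM with PD0325901. The gene-level value of Setdb1 did not mark the deletion: it ranged from 5.16 to 5.95 FPKM in untreated and from 4.16 to 6.52 FPKM in 4OHT day 5 libraries, and it was listed at exactly 0 in 3 of the 4 libraries of 4OHT day 6 with or without PD0325901. The correlation between the replicates of 4OHT siCtrl (r = 0.979 across genes) was the lowest of any replicate pair. The library labelled PD0325901 replicate 2 carries a title line that names 4OHT with PD0325901, while its sample label and its description name PD0325901 alone. Across genes it correlated at r = 0.988 with PD0325901 replicate 1 and at 0.976 and 0.977 with the 4OHT PD0325901 libraries. The label was followed. Receptors were also tested without each library in turn, while all other named genes were tested with all libraries only.

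Fibroblast markers were present in every library, and several moved with the groups. Their summed level over the markers with a value (10 of 12 in total RNA, 12 in siRNA and 11 in inhibitor libraries) was never under 1449 FPKM. Of those tested, 6 of 9 fell at 4OHT day 5 (Postn by log2 -3.17 and Dcn by -1.58), beside 18.4% of all genes. In 4OHT siCtrl 8 of 12 fell and 5 of 10 at 4OHT day 6, beside 6.49% and 12.7% of all genes. In long-term KO cells 4 of 9 rose, a share near the 38.1% of all genes. With PD0325901, 6 of 10 rose and 2 fell, beside 5.93% and 7.79% of all genes. Of 12 tested with siDnmt1, 1 rose and 4 fell, beside 3.09% and 4.80%. Of 10 tested with TSA, 3 rose and 5 fell, beside 31.4% and 24.4%. The 5 endothelial markers summed to at most 2.27 FPKM. Epithelial and haematopoietic markers moved with some groups. The 7 epithelial markers summed to between 57.7 and 90.2 FPKM with siDnmt1, with and without 4OHT, against at most 1.09 FPKM in siCtrl and 1.33 and 13.6 FPKM in the 4OHT siCtrl libraries, mostly from the keratins Krt8 and Krt18. They summed to between 35.3 and 41.9 FPKM with TSA, mostly Epcam, against at most 1.54 FPKM in untreated cells, and Cd68 stood at between 60.5 and 66.9 FPKM with TSA against at most 4.90 FPKM, while the other 4 haematopoietic markers with a value stayed under 1 FPKM. The part of these markers in the receptor differences was not tested.

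RefSeq promoter windows (GRCm38.p6, 250 bases before to 50 bases after the start) were examined for 7 of the 10 receptors. Those of Pdgfra and Fgfr2 are printed because these receptors changed in several treatments and because the study perturbed Dnmt1, which acts on CpG dinucleotides. Each is written 5′ to 3′ on the strand of its gene, in lower case, with every CpG in capitals. The Pdgfra window lies on the plus strand at chr5:75152001-75152300 and the Fgfr2 window on the minus strand at chr7:130266759-130267058.
Pdgfra: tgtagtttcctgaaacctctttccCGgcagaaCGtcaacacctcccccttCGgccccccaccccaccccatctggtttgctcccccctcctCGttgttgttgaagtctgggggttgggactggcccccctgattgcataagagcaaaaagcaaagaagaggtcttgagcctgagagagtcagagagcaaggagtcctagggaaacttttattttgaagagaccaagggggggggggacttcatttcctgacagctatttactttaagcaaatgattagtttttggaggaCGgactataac
Fgfr2: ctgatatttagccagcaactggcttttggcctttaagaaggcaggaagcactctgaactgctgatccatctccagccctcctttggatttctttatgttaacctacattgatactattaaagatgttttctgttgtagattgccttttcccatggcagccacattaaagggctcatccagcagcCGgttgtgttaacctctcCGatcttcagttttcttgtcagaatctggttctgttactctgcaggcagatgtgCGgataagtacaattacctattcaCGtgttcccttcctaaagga

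The Pdgfra window held 5 CpGs and that of Fgfr2 held 4, against a median of 7 over 32851 RefSeq promoter windows of the same length. Those of Axl and Ddr2 held 6 and 2, that of Egfr 15, and those of Met and Igf1r 34 and 48, the last more than 98.8% of all windows hold. Ddr2 lies on the minus strand, and its locus ran farther on the 5′ side in most libraries. The Ddr2 window may therefore not lie at the start in use, which was not examined. Among 3 motifs searched on both strands, GGGCGG occurred in 35.7% of all windows and in those of Egfr, Igf1r, Met and Axl. TGANTCA occurred in 7.8% of all windows and in that of Met, and CCGGAAG occurred in 8.9% and in that of Egfr. A GGGCGG match contains a CpG, and these letters alone describe no bound site. Windows of Pdgfrb, Fgfr1 and Insr were not examined, so nothing is said of the CpGs or motifs of these receptors.

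In untreated cells of the total RNA experiment, Axl (98.8 ± 6.91 FPKM, mean ± SD, n = 3) and Ddr2 (84.4 ± 3.06 FPKM) had the highest levels of the 10. Fgfr1, Met, Pdgfra and Egfr followed at between 14.7 and 25.9 FPKM, and Igf1r, Pdgfrb, Insr and Fgfr2 lay at 7.80, 4.97, 4.40 and 1.75 FPKM. Of neighbours in that order, the libraries overlapped for Fgfr1 and Met alone. Axl and Ddr2 were also the first and the second in siCtrl and in the untreated cells of the inhibitor experiment, followed by Fgfr1. Pdgfrb changed place most between these control groups, at 33.6 FPKM (n = 2) in siCtrl and 18.7 FPKM (n = 2) in the untreated cells of the inhibitor experiment.

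Pdgfra is the receptor for most PDGF dimers (chr5:75548316-75594229 in mm9, the build of the files). It was lower in every 4OHT group than in the untreated or siCtrl cells of the same experiment. In total RNA it measured 18.6, 18.6 and 18.2 FPKM in untreated, 6.78, 6.45 and 5.98 FPKM in 4OHT day 5 and 2.52, 2.49 and 2.40 FPKM in long-term KO libraries. The 3 groups did not overlap. Pdgfra fell 2.86-fold at day 5 (log2 -1.52, SE 0.05, adjusted p = 4.1e-07) and 7.22-fold in long-term KO cells (log2 -2.85, SE 0.05, adjusted p = 8.11e-09). It was also 2.53-fold lower in long-term KO than at day 5 (adjusted p = 2.66e-07).

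In the siRNA experiment Pdgfra stood at 22.9 and 21.5 FPKM in siCtrl, 16.4 and 16.3 FPKM in siDnmt1, 2.79 and 2.00 FPKM in 4OHT siCtrl and 3.88 and 4.52 FPKM in 4OHT siDnmt1 libraries. It fell 9.04-fold in 4OHT siCtrl against siCtrl (log2 -3.18, SE 0.18, adjusted p = 0.000758). The value in siDnmt1 was 1.35-fold lower than in siCtrl and that in 4OHT siDnmt1 was 1.74-fold higher than in 4OHT siCtrl, and neither passed (adjusted p = 0.198 and 0.0955). The difference between these 2 siDnmt1 effects did not pass either (log2 1.24, SE 0.26, adjusted p = 0.237). Without 4OHT siCtrl replicate 1, both the second comparison (log2 1.03, adjusted p = 0.00993) and the interaction (log2 1.47, adjusted p = 0.0183) passed. In a fit of siCtrl and siDnmt1 alone the first comparison passed (adjusted p = 0.00983).

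In the inhibitor experiment Pdgfra measured 31.8 and 30.7 FPKM in untreated, 8.33 and 10.3 FPKM in TSA, 0.936 and 9.93 FPKM in PD0325901, 2.49 and 4.46 FPKM in 4OHT day 6 and 0.871 and 1.82 FPKM in 4OHT PD0325901 libraries. All 8 treated libraries lay below both untreated ones. Those of 4OHT PD0325901 overlapped those of PD0325901, a pair that was not tested. The deposited 95% interval reached 0 in PD0325901 replicate 1 and in both 4OHT PD0325901 libraries. Pdgfra fell 9.11-fold in 4OHT day 6 cells (log2 -3.19, SE 0.91, adjusted p = 0.0404). The 9.72-fold lower value in PD0325901 cells did not pass (log2 -3.28, SE 0.91, adjusted p = 0.054), and neither did the 3.34-fold lower value in TSA cells (log2 -1.74, SE 0.91, adjusted p = 0.141). The 4OHT day 6 call was lost without any 1 of its 4 libraries (adjusted p between 0.0905 and 0.159). The PD0325901 replicates lay farther apart on the log scale than those of the other groups. The PD0325901 value passed with the replicate number as a block (adjusted p = 0.0282), with a pseudocount of 1 (0.0337) and with quantile normalization (0.0422). Without PD0325901 replicate 2 it passed as well (log2 -4.92, adjusted p = 0.00321), and with no PD0325901 libraries in the fit that of TSA passed (adjusted p = 0.00863).

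**Figure D1:**
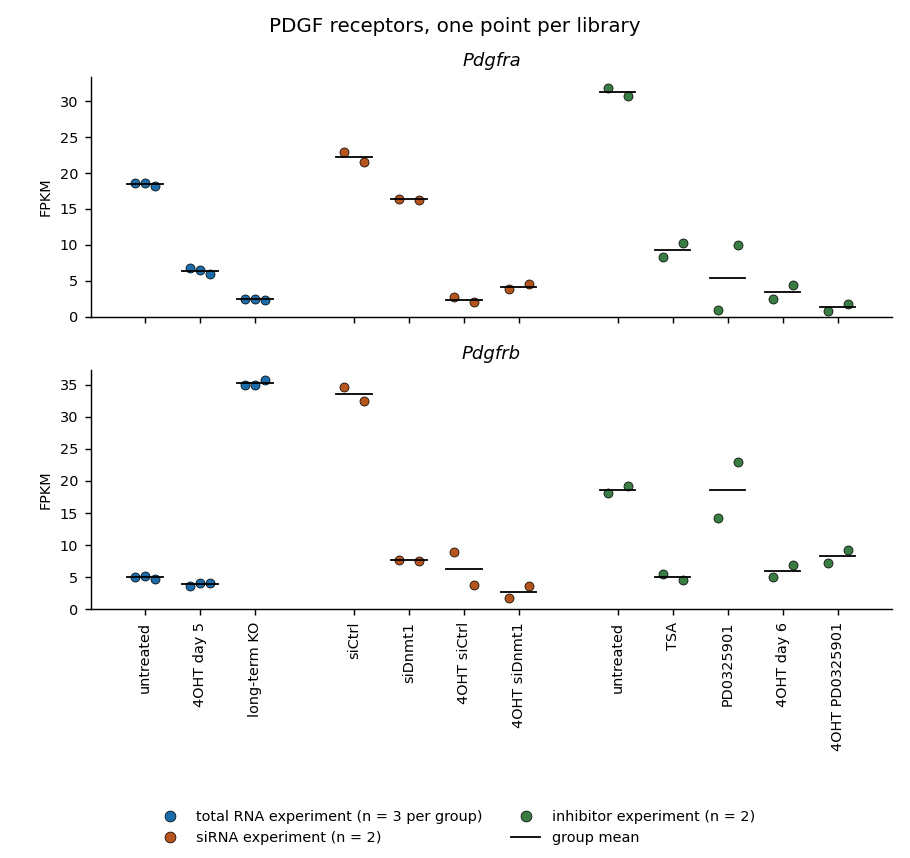
FPKM of Pdgfra (top) and Pdgfrb (bottom) in each library, grouped by condition, with points coloured by experiment and a bar at each group mean. Pdgfra lay lower in all 4OHT groups than in the untreated or siCtrl cells of the same experiment. Pdgfrb lay lower with 4OHT at days 5 and 6 and with siDnmt1 but stood between 34.9 and 35.7 FPKM in long-term KO cells.

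Pdgfrb, the receptor that PDGF-B and PDGF-D bind best (chr18:61204804-61244721), moved in opposite directions at the early and the late time after 4OHT. It measured 5.02, 5.13 and 4.76 FPKM in untreated, 3.67, 4.04 and 4.10 FPKM in 4OHT day 5 and 34.9, 35.0 and 35.7 FPKM in long-term KO libraries. The groups did not overlap. Pdgfrb fell 1.26-fold at day 5 (log2 -0.33, SE 0.05, adjusted p = 0.00158) and rose 6.96-fold in long-term KO cells (log2 2.80, SE 0.05, adjusted p = 8.3e-09). Long-term KO cells exceeded day 5 cells 8.76-fold (log2 3.13, SE 0.05, adjusted p = 7.94e-09). In long-term KO cells Pdgfrb and Pdgfra had thus changed by like amounts in opposite directions, from a mean of 4.97 to 35.2 FPKM and from 18.5 to 2.47 FPKM.

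In the siRNA experiment Pdgfrb stood at 34.7 and 32.5 FPKM in siCtrl, 7.75 and 7.52 FPKM in siDnmt1, 8.96 and 3.71 FPKM in 4OHT siCtrl and 1.82 and 3.57 FPKM in 4OHT siDnmt1 libraries. All 6 perturbed libraries lay below both siCtrl libraries. Pdgfrb fell 5.73-fold with 4OHT (log2 -2.52, SE 0.45, adjusted p = 0.0212) and 4.36-fold with siDnmt1 (log2 -2.12, SE 0.45, adjusted p = 0.0444). The 4OHT call was lost without either siCtrl library (adjusted p = 0.124 without replicate 1 and 0.132 without replicate 2), and that of siDnmt1 was lost without any 1 of its 4 libraries (adjusted p between 0.210 and 0.229). In 4OHT cells siDnmt1 gave a 2.21-fold lower value that did not pass (log2 -1.15, SE 0.45, adjusted p = 0.239).

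In the inhibitor experiment Pdgfrb measured 18.1 and 19.2 FPKM in untreated, 5.46 and 4.53 FPKM in TSA, 14.3 and 22.9 FPKM in PD0325901, 4.94 and 6.87 FPKM in 4OHT day 6 and 7.17 and 9.26 FPKM in 4OHT PD0325901 libraries. It fell 3.16-fold at 4OHT day 6 (log2 -1.66, SE 0.27, adjusted p = 0.00539) and 3.70-fold with TSA (log2 -1.89, SE 0.27, adjusted p = 0.000687). The PD0325901 libraries lay on either side of the untreated ones (log2 -0.04, 95% confidence interval -0.66 to 0.57, adjusted p = 0.947). With PD0325901 on top of 4OHT the mean was 1.39-fold higher than with 4OHT alone and did not pass (adjusted p = 0.334).

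Fgfr2, a receptor for fibroblast growth factors (chr7:137305965-137410322), was the lowest of the 10 in untreated total RNA and was higher in long-term KO cells and with the MEK inhibitor. It measured 1.66, 2.03 and 1.56 FPKM in untreated, 1.74, 1.90 and 1.75 FPKM in 4OHT day 5 and 4.57, 5.21 and 4.70 FPKM in long-term KO libraries. The day 5 and untreated libraries overlapped, and all long-term KO libraries lay above them. Fgfr2 rose 2.67-fold in long-term KO cells (log2 1.42, SE 0.10, adjusted p = 7.8e-06), and the day 5 difference was log2 0.04 (95% confidence interval -0.20 to 0.28).

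With PD0325901, Fgfr2 reached 17.7 and 16.8 FPKM from 4.22 and 6.17 FPKM in untreated libraries, a rise of 3.34-fold (log2 1.74, SE 0.23, adjusted p = 0.00363). It stood at 12.7 and 10.7 FPKM with 4OHT and PD0325901 against 6.12 and 7.53 FPKM at 4OHT day 6, and this 1.71-fold difference did not pass (adjusted p = 0.0896). TSA libraries measured 8.08 and 6.09 FPKM and overlapped the untreated ones. With siDnmt1, Fgfr2 fell 3.50-fold, from 7.01 and 7.40 FPKM in siCtrl to 2.11 and 1.87 FPKM (log2 -1.81, SE 0.30, adjusted p = 0.0225). That call was lost without any 1 of the 4 libraries (adjusted p between 0.139 and 0.158). In 4OHT cells the siDnmt1 libraries (1.57 and 2.99 FPKM) also lay below those of siCtrl (5.83 and 4.69 FPKM), and the difference passed without 4OHT siDnmt1 replicate 2 alone (log2 -1.67, adjusted p = 0.0393, against 0.109 with all libraries).

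Fgfr1, the main FGF receptor of mesenchymal cells (chr8:26629231-26686190), varied little outside total RNA and TSA. It measured 25.3, 22.3 and 30.1 FPKM in untreated and 37.1, 36.7 and 38.0 FPKM in long-term KO libraries, a rise of 1.45-fold (log2 0.53, SE 0.10, adjusted p = 0.00217). The first of these long-term KO values has a deposited interval that runs from 0 to 16008 FPKM, although its status is OK. At day 5 the value was 1.20-fold higher and did not pass (adjusted p = 0.0873). TSA lowered Fgfr1 1.47-fold, from 39.2 and 37.0 FPKM to 26.6 and 25.3 FPKM (log2 -0.55, SE 0.15, adjusted p = 0.016). The TSA call was lost without any 1 of the 4 libraries (adjusted p between 0.0535 and 0.0848). In the siRNA libraries Fgfr1 lay between 33.1 and 40.5 FPKM and passed in no comparison.

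Egfr, the receptor for EGF, TGF-alpha and amphiregulin (chr11:16652206-16813910), fell in both 4OHT groups of the total RNA experiment and by a like amount. It measured 14.6, 15.7 and 13.8 FPKM in untreated, 9.02, 9.25 and 9.58 FPKM in 4OHT day 5 and 9.03, 8.93 and 8.62 FPKM in long-term KO libraries. The fall was 1.58-fold at day 5 (log2 -0.66, SE 0.05, adjusted p = 5.41e-05) and 1.65-fold in long-term KO cells (log2 -0.72, SE 0.05, adjusted p = 7.07e-06). The latter groups overlapped (log2 -0.07, 95% confidence interval -0.19 to 0.05). In the other experiments Egfr ranged from 4.00 to 13.2 FPKM and passed in no comparison. With PD0325901 it stood at 4.59 and 6.40 FPKM against 7.72 and 8.23 FPKM in untreated libraries (log2 -0.55, SE 0.23, adjusted p = 0.169).

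Met, the receptor for hepatocyte growth factor (chr6:17413957-17523980), rose slightly in long-term KO cells, from 24.3, 24.5 and 23.5 FPKM to 28.5, 28.1 and 28.7 FPKM (1.18-fold, log2 0.24, SE 0.03, adjusted p = 0.000335). At day 5 its libraries (23.3, 24.5 and 24.7 FPKM) overlapped the untreated ones. No siRNA or inhibitor comparison passed. With PD0325901 it measured 21.3 and 14.1 FPKM, below the untreated 23.6 and 23.4 FPKM, and the 1.36-fold difference passed without PD0325901 replicate 1 (log2 -0.74, adjusted p = 0.0208) but not with it (adjusted p = 0.152). The replicates of 4OHT siCtrl stood apart for Met, at 19.0 and 29.4 FPKM.

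Igf1r, the receptor for insulin-like growth factors (chr7:75097143-75378553), fell with 4OHT in the siRNA and inhibitor experiments. It measured 8.47 and 7.85 FPKM in siCtrl and 4.77 and 4.94 FPKM in 4OHT siCtrl libraries, a fall of 1.67-fold (log2 -0.74, SE 0.16, adjusted p = 0.035). It measured 8.42 and 9.07 FPKM in untreated and 4.31 and 4.16 FPKM in 4OHT day 6 libraries, a fall of 2.04-fold (log2 -1.03, SE 0.19, adjusted p = 0.00828). TSA lowered it 1.72-fold, to 5.61 and 4.53 FPKM (log2 -0.78, SE 0.19, adjusted p = 0.00862). In total RNA the value was 1.22-fold lower at day 5 and 1.30-fold lower in long-term KO cells, and neither passed (adjusted p = 0.215 and 0.0728). The long-term KO value passed under median-ratio scaling (0.0321), quantile normalization (0.0233) and a replicate block (0.0203) and without untreated replicate 1 (0.0396). Leaving out either siCtrl library ended the first call (adjusted p = 0.175 without replicate 1 and 0.165 without replicate 2), and leaving out either untreated library ended the second (adjusted p = 0.0517 and 0.0679). The TSA call ended without untreated replicate 2 (adjusted p = 0.0571) or TSA replicate 2 (adjusted p = 0.0563).

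Insr, the insulin receptor and nearest relative of Igf1r (chr8:3150922-3279617), was among the least variable of the 10. It measured 4.21, 4.50 and 4.49 FPKM in untreated and 5.25, 7.31 and 5.80 FPKM in long-term KO libraries, a rise of 1.37-fold (log2 0.45, SE 0.11, adjusted p = 0.00673). It passed in no siRNA or inhibitor comparison, and in siRNA libraries it lay between 4.04 and 4.93 FPKM. The 4OHT day 6 replicates lay far apart, at 3.03 and 7.28 FPKM, on either side of the untreated values of 5.26 and 5.11 FPKM.

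Axl, the receptor for Gas6 (chr7:26541519-26573752), was the most abundant of the 10 in the control libraries and differed in direction between early and late 4OHT cells. It measured 106, 97.1 and 92.9 FPKM in untreated, 108, 121 and 143 FPKM in 4OHT day 5 and 73.3, 71.4 and 64.8 FPKM in long-term KO libraries. Axl rose 1.25-fold at day 5 (log2 0.32, SE 0.10, adjusted p = 0.0429) and fell 1.41-fold in long-term KO cells (log2 -0.50, SE 0.10, adjusted p = 0.00307). The day 5 call was lost without any 1 of 4 of its 6 libraries (adjusted p between 0.0854 and 0.120), these being untreated replicates 2 and 3 and 4OHT day 5 replicates 2 and 3.

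In the inhibitor experiment Axl rose 1.67-fold at 4OHT day 6, from 104 and 104 FPKM to 173 and 173 FPKM (log2 0.74, SE 0.12, adjusted p = 0.00508). PD0325901 lowered it in both backgrounds: 1.43-fold to 74.2 and 70.8 FPKM without 4OHT (adjusted p = 0.0262) and 1.70-fold to 99.5 and 103 FPKM with 4OHT (log2 -0.77, SE 0.12, adjusted p = 0.0102). The difference between these falls did not pass (log2 -0.25, 95% confidence interval -0.63 to 0.13, adjusted p = 0.508). The call without 4OHT was lost without any 1 of its 4 libraries (adjusted p between 0.0868 and 0.150), and that with 4OHT was lost without 4OHT day 6 replicate 1 (adjusted p = 0.0521) or 4OHT PD0325901 replicate 1 (adjusted p = 0.0565). TSA lowered Axl 1.81-fold, to 64.3 and 50.7 FPKM (log2 -0.86, SE 0.12, adjusted p = 0.000548). In the siRNA experiment Axl stood at 117 and 121 FPKM in siCtrl and between 145 and 173 FPKM in the other 6 libraries. These differences from siCtrl did not pass for siDnmt1 (1.26-fold, adjusted p = 0.102) or 4OHT siCtrl (1.32-fold, adjusted p = 0.0525), and the latter passed without 4OHT siCtrl replicate 2 (log2 0.52, adjusted p = 0.0116).

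Ddr2 is a receptor for fibrillar collagen (chr1:171902438-172019075, with a farther end on the 5′ side in most libraries, such as 172041260 in untreated total RNA replicate 1). It fell in long-term KO cells and most with TSA. It measured 87.9, 82.3 and 83.0 FPKM in untreated, 79.1, 79.1 and 81.0 FPKM in 4OHT day 5 and 57.2, 57.5 and 58.8 FPKM in long-term KO libraries, a fall of 1.46-fold in the last group (log2 -0.54, SE 0.03, adjusted p = 3.05e-06). TSA lowered it 5.05-fold, from 84.8 and 86.9 FPKM to 22.1 and 12.9 FPKM (log2 -2.34, SE 0.31, adjusted p = 0.00049). In 4OHT siDnmt1 it stood at 54.2 and 54.7 FPKM against 75.5 and 71.2 FPKM in 4OHT siCtrl libraries (log2 -0.43, SE 0.09, adjusted p = 0.0702). The second 4OHT siCtrl value is the only receptor value whose deposited status is not OK, and without it the difference passed (log2 -0.47, adjusted p = 0.0473). It also passed without replicate 1 of that group (log2 -0.39, adjusted p = 0.0321).

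**Figure D2:**
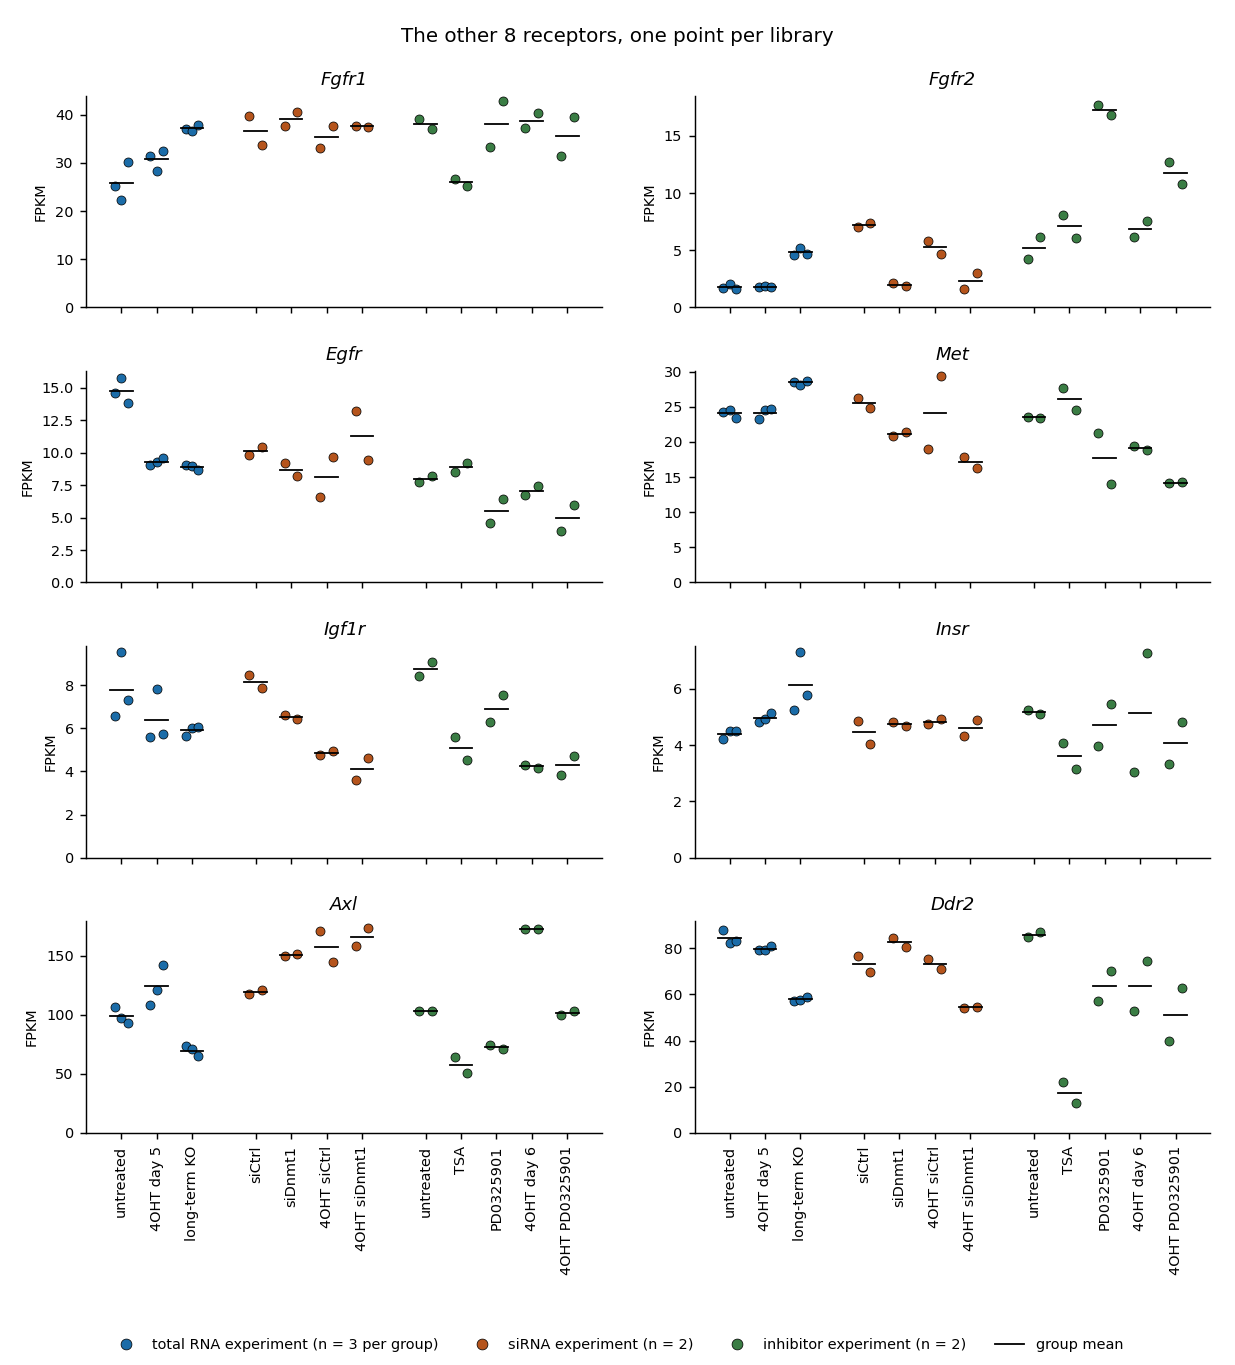
FPKM of the other 8 receptors in each library, grouped by condition, with points coloured by experiment and a bar at each group mean. Fgfr2 stood highest with PD0325901 (17.7 and 16.8 FPKM), Axl highest of the inhibitor experiment at 4OHT day 6 (173 and 173 FPKM) and Ddr2 lowest with TSA (22.1 and 12.9 FPKM).

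Calls among the 10 are set beside those of all genes tested. At 4OHT day 5, 1 receptor rose and 3 fell, where 19.0% of 8907 tested genes rose and 18.4% fell. In long-term KO cells 5 rose and 4 fell against untreated cells, beside 38.1% and 29.8% of all genes, and 5 rose and 3 fell against day 5, beside 36.0% and 30.5%. These 3 comparisons share libraries. The median log2 difference of the 10 was -0.07 in long-term KO cells against untreated ones, and that of all tested genes was 0.07.

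In the siRNA experiment more receptors fell than rose. Of the 10, 3 fell and 0 rose in 4OHT siCtrl, where 6.49% of 10703 tested genes fell and 7.18% rose. With siDnmt1, 2 fell and 0 rose, where 4.80% fell and 3.09% rose. In each of these comparisons 1 receptor, Axl, was higher at an unadjusted p under 0.05 in limma. Of all 10703 genes, 3493 with 4OHT and 2782 with siDnmt1 had such a p, in either direction. In 4OHT siDnmt1 against 4OHT siCtrl limma called 0 receptors, where 1.10% of all genes rose and 0.934% fell. At an unadjusted p under 0.05 there were 1 higher and 3 lower, beside 2095 of 10703 genes in either direction. The interaction of 4OHT and siDnmt1 gave 0 receptors beside 0.121% of genes higher and 0.0747% lower. At an unadjusted p under 0.05, 1 was higher (Pdgfra) and 1 lower (Ddr2), beside 1072 of 10703 genes in either direction.

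In the inhibitor experiment 1 receptor rose and 3 fell at 4OHT day 6, where 12.3% of 11444 tested genes rose and 12.7% fell. With PD0325901 1 rose and 1 fell, beside 5.93% and 7.79% of all genes. In 4OHT PD0325901 against 4OHT day 6 limma called 0 higher and 1 lower, beside 4.26% and 2.60%. Fgfr2 was higher at an unadjusted p under 0.05, which 2584 of 11444 genes had in either direction. With TSA 0 rose and 5 fell, beside 31.4% and 24.4%. At an unadjusted p under 0.05, 0 were higher, beside 7005 of 11444 genes in either direction. The median log2 difference of the 10 with TSA was -0.67 and that of all tested genes 0.10. The interaction of 4OHT and PD0325901 gave 0 receptors, beside 0.524% higher and 0.210% lower. At an unadjusted p under 0.05 Fgfr2 alone was lower (log2 -0.96, SE 0.32, adjusted p = 0.218), beside 1810 of 11444 genes in either direction.

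**Figure D3:**
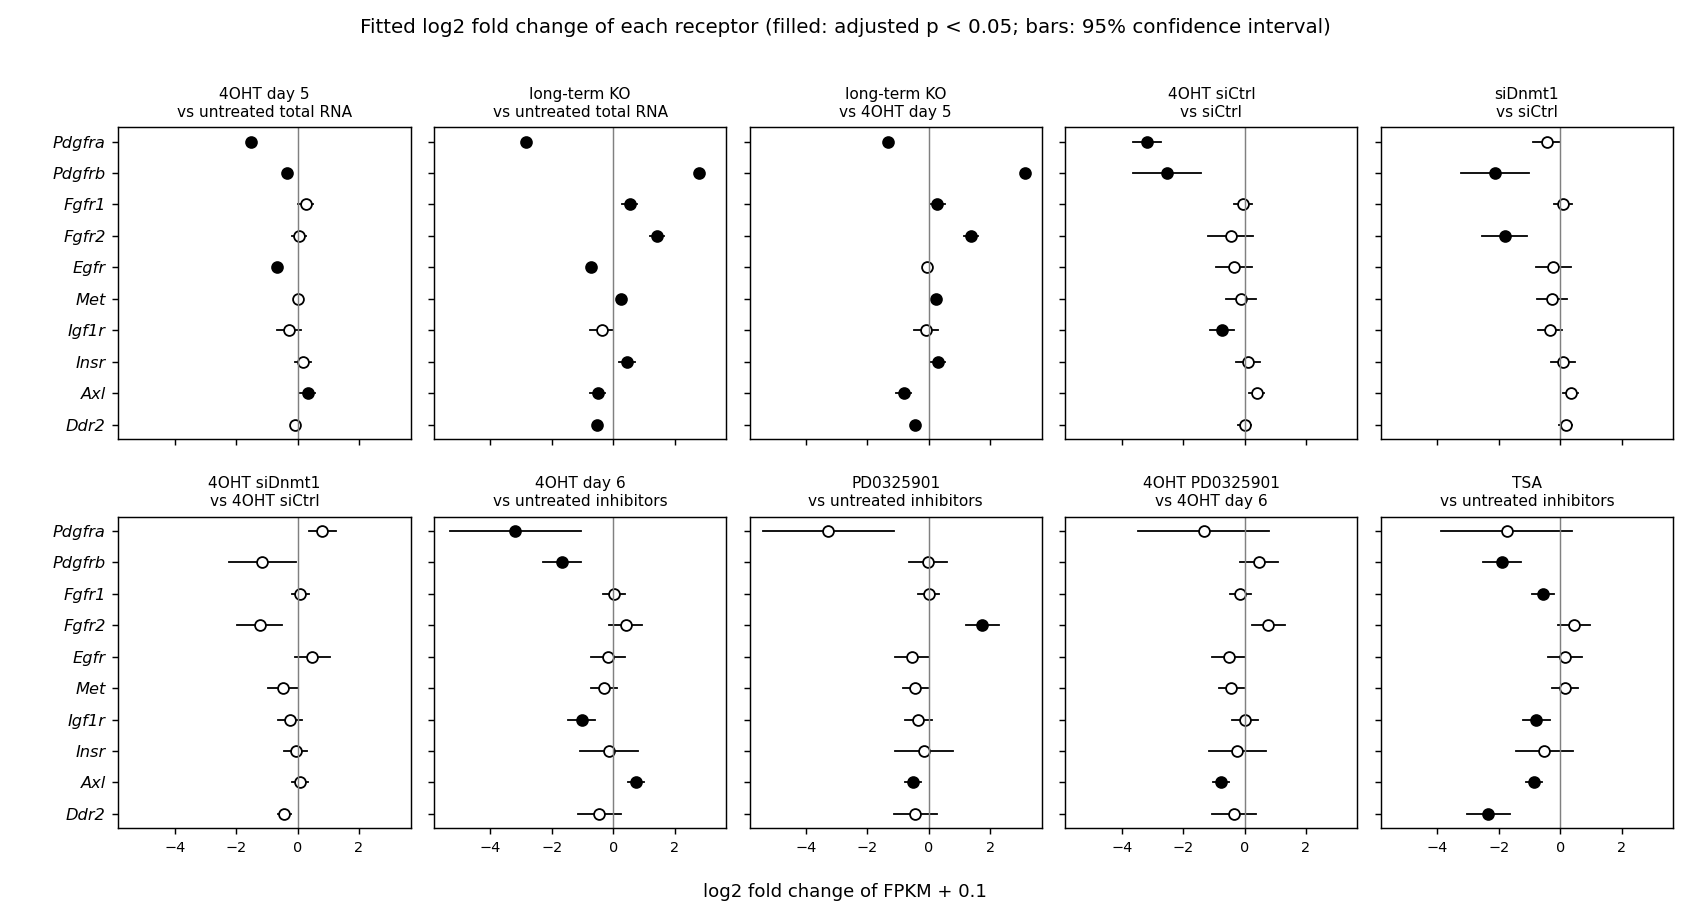
Fitted log2 fold change of FPKM + 0.1 for each receptor in the 10 comparisons, with 95% confidence intervals and filled points where the adjusted p of limma was under 0.05. Pdgfra and Pdgfrb had the widest range of changes, and no receptor was called higher with TSA.

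The ligands of these receptors, a list of 25 genes, were called lower more often than higher in each comparison of 4OHT with its controls. At day 5, 5 of 12 tested ligands fell, beside 18.4% of all genes, and limma called 0 higher. At an unadjusted p under 0.05, 0 ligands were higher, beside 4120 of 8907 genes in either direction. The median log2 difference of the tested ligands was -0.38, and that of all genes was 0.00. Col3a1, a fibrillar collagen chain of the kind Ddr2 binds, went from a mean of 251 to 90.5 FPKM (log2 -1.47, SE 0.04, adjusted p = 2.26e-07). Pdgfc, a ligand of Pdgfra, fell at the same time (log2 -1.21, SE 0.11, adjusted p = 0.000121). In long-term KO cells 3 of 12 ligands rose and 8 fell against untreated cells, beside 38.1% and 29.8% of all genes. Fgf10, a ligand of one splice form of Fgfr2, rose from 0.310 to 4.23 FPKM (log2 3.40, SE 0.10, adjusted p = 7.04e-08). A gene had to reach 1 FPKM in enough libraries to be tested, and Fgf10 did so through the long-term KO libraries only (0.298 FPKM at day 5). A fall of Fgf10 in these cells could therefore not have been found. Hgf, the ligand of Met, fell to 0.0610 FPKM (log2 -3.85, SE 0.15, adjusted p = 3.13e-07).

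In the siRNA experiment 8 of 18 tested ligands fell with 4OHT and 1 rose, beside 6.49% and 7.18% of all genes. Col1a1, another collagen chain, fell (log2 -1.63, SE 0.15, adjusted p = 0.0035), and Pdgfb, a ligand of both PDGF receptors, rose from 0.268 to 0.957 FPKM (log2 1.52, SE 0.31, adjusted p = 0.0277). Col1a1 and Col3a1 also stand in the fibroblast marker list, of which between 5 and 8 tested genes fell at 4OHT day 5, in 4OHT siCtrl and at 4OHT day 6. Its sum was between 2438 and 3766 FPKM in 4OHT siCtrl against 5260 to 5339 FPKM in siCtrl libraries. The part of these changes in the receptor and ligand results was not tested. With siDnmt1, 1 ligand rose and 3 fell, beside 3.09% and 4.80% of all genes, among them Fgf10 (log2 -2.27, SE 0.32, adjusted p = 0.013). Pdgfd, a ligand of Pdgfrb, rose with siDnmt1 both without 4OHT (log2 0.77, adjusted p = 0.0153) and with it (log2 0.90, adjusted p = 0.0199).

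In the inhibitor experiment 3 of 21 tested ligands rose and 6 fell at 4OHT day 6, beside 12.3% and 12.7% of all genes, and Igf1, a ligand of Igf1r, went from 4.54 to 0.823 FPKM (log2 -2.33, SE 0.26, adjusted p = 0.00148). With PD0325901, 6 rose and 4 fell, beside 5.93% and 7.79% of all genes. Areg, the Egfr ligand amphiregulin, fell from 1.89 to 0.0367 FPKM (log2 -3.89, SE 0.40, adjusted p = 0.00127), and Pdgfc rose (log2 1.46, SE 0.20, adjusted p = 0.00432). With TSA, 7 rose and 9 fell, beside 31.4% and 24.4% of all genes. Areg rose from 1.89 to 87.0 FPKM (log2 5.47, SE 0.40, adjusted p = 3.7e-05). Gas6, the ligand of Axl, rose from 0.0949 to 4.76 FPKM (log2 4.67, SE 0.44, adjusted p = 0.000102), while Axl itself fell. The untreated Gas6 level lay far under the filter of 1 FPKM, so a fall could hardly have been found. In 4OHT PD0325901 against 4OHT day 6 cells 3 ligands rose and 3 fell, beside 4.26% and 2.60% of all genes.

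Of the adaptors and effectors (23 genes listed), 11 of 18 tested rose and 1 fell at day 5, beside 19.0% and 18.4% of all genes. In long-term KO cells 8 rose and 5 fell, shares near the 38.1% and 29.8% of all genes. Nck2, an adaptor to the cytoskeleton, rose in both (log2 1.06 at day 5 and 1.01 in long-term KO cells, SE 0.03 for each, adjusted p = 3.35e-07 and 1.31e-07). Pik3r1, the regulatory subunit of phosphoinositide 3-kinase, rose to 8.31 FPKM in long-term KO from 4.41 FPKM in untreated cells (log2 0.90, SE 0.06, adjusted p = 3.5e-06). With 4OHT siCtrl limma called 0 higher and 1 lower of 21, beside 7.18% and 6.49% of all genes. At an unadjusted p under 0.05, 5 were higher, beside 3493 of 10703 genes in either direction. With siDnmt1, 1 rose and 2 fell, beside 3.09% and 4.80% of all genes. At 4OHT day 6, 3 of 20 rose and 5 fell, beside 12.3% and 12.7% of all genes. With PD0325901 2 rose and 2 fell, beside 5.93% and 7.79% of all genes. With PD0325901 on top of 4OHT 1 rose and 1 fell, beside 4.26% and 2.60%. With TSA 4 rose and 3 fell, beside 31.4% and 24.4%. Rasa1, a GTPase activator that turns RAS off, fell with PD0325901 without 4OHT (log2 -1.42, SE 0.20, adjusted p = 0.00484) and with it (log2 -1.57, SE 0.20, adjusted p = 0.00556).

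Negative regulators (17 genes listed) split in direction, and Errfi1, a feedback inhibitor of Egfr, changed in all 3 experiments. Of 16 tested in total RNA, 4 rose and 6 fell at day 5, beside 19.0% and 18.4% of all genes, and 7 rose and 3 fell in long-term KO cells, beside 38.1% and 29.8%. Errfi1 fell from a mean of 110 FPKM in untreated cells to 44.7 FPKM at day 5 (log2 -1.30, SE 0.09, adjusted p = 3.88e-05) and to 6.19 FPKM in long-term KO cells (log2 -4.14, SE 0.09, adjusted p = 2.36e-08). It fell from 76.8 to 37.8 FPKM at 4OHT day 6 (log2 -1.03, SE 0.18, adjusted p = 0.00745) and to 3.66 FPKM with PD0325901 (log2 -4.36, SE 0.18, adjusted p = 1.77e-05). With siDnmt1 it rose from 61.1 to 194 FPKM (log2 1.67, SE 0.16, adjusted p = 0.00437), and with TSA it rose from 76.8 to 194 FPKM (adjusted p = 0.000592). Lrig1, a membrane protein that promotes receptor degradation, fell in long-term KO cells (log2 -1.37, SE 0.06, adjusted p = 4.27e-07) and with PD0325901 (log2 -1.25, SE 0.18, adjusted p = 0.00569). Of 16 tested in siRNA libraries 2 fell with 4OHT, where limma called 0 higher, and 1 rose and 2 fell with siDnmt1. At an unadjusted p under 0.05, 1 was higher with 4OHT, beside 3493 of 10703 genes in either direction. Of 17 tested in inhibitor libraries 1 rose and 5 fell at 4OHT day 6, and 3 rose and 3 fell with PD0325901. With PD0325901 on top of 4OHT 1 rose and 2 fell, and with TSA 5 rose and 4 fell. All-gene shares in siRNA libraries were 7.18% higher and 6.49% lower with 4OHT and 3.09% and 4.80% with siDnmt1. In inhibitor libraries they were, in the same order, 12.3% and 12.7%, 5.93% and 7.79%, 4.26% and 2.60%, and 31.4% and 24.4%. The counts with TSA were near the last of these.

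Of the other receptor tyrosine kinases (38 genes listed), 16 were tested in total RNA. In long-term KO cells 10 of them rose and 4 fell, beside 38.1% and 29.8% of all genes, and at day 5 3 rose and 6 fell, beside 19.0% and 18.4%. Ephb3, an ephrin receptor, rose from 3.17 to 10.2 FPKM (log2 1.65, SE 0.05, adjusted p = 9.56e-08), and Epha3 fell at both times. In siRNA libraries 2 of 19 rose and 5 fell with 4OHT, beside 7.18% and 6.49% of all genes, and 1 rose and 3 fell with siDnmt1, beside 3.09% and 4.80%. In inhibitor libraries 3 of 24 rose and 9 fell at 4OHT day 6, 5 rose and 2 fell with PD0325901, 3 rose and 1 fell with PD0325901 on top of 4OHT, and 11 rose and 5 fell with TSA. The all-gene shares there were 12.3% and 12.7%, 5.93% and 7.79%, 4.26% and 2.60%, and 31.4% and 24.4%. Mertk, a relative of Axl, fell with PD0325901 from 7.97 to 1.18 FPKM (log2 -2.69, SE 0.24, adjusted p = 0.000728). Kdr and Flt4, receptors of endothelial cells, rose with TSA to means of 1.80 and 7.03 FPKM, and Kdr also stands in the endothelial marker list. Kdr lay under 1 FPKM in the untreated libraries, so a fall of Kdr could hardly have been found. In 4OHT siDnmt1 against 4OHT siCtrl cells limma called 1 gene of these 4 lists, Pdgfd, and in both interactions it called 0. Between 1 and 8 genes a list passed at an unadjusted p under 0.05. Of all genes, 2095 of 10703 did so in the first comparison, 1072 of 10703 in the siDnmt1 interaction and 1810 of 11444 in that of PD0325901.

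**Figure D4:**
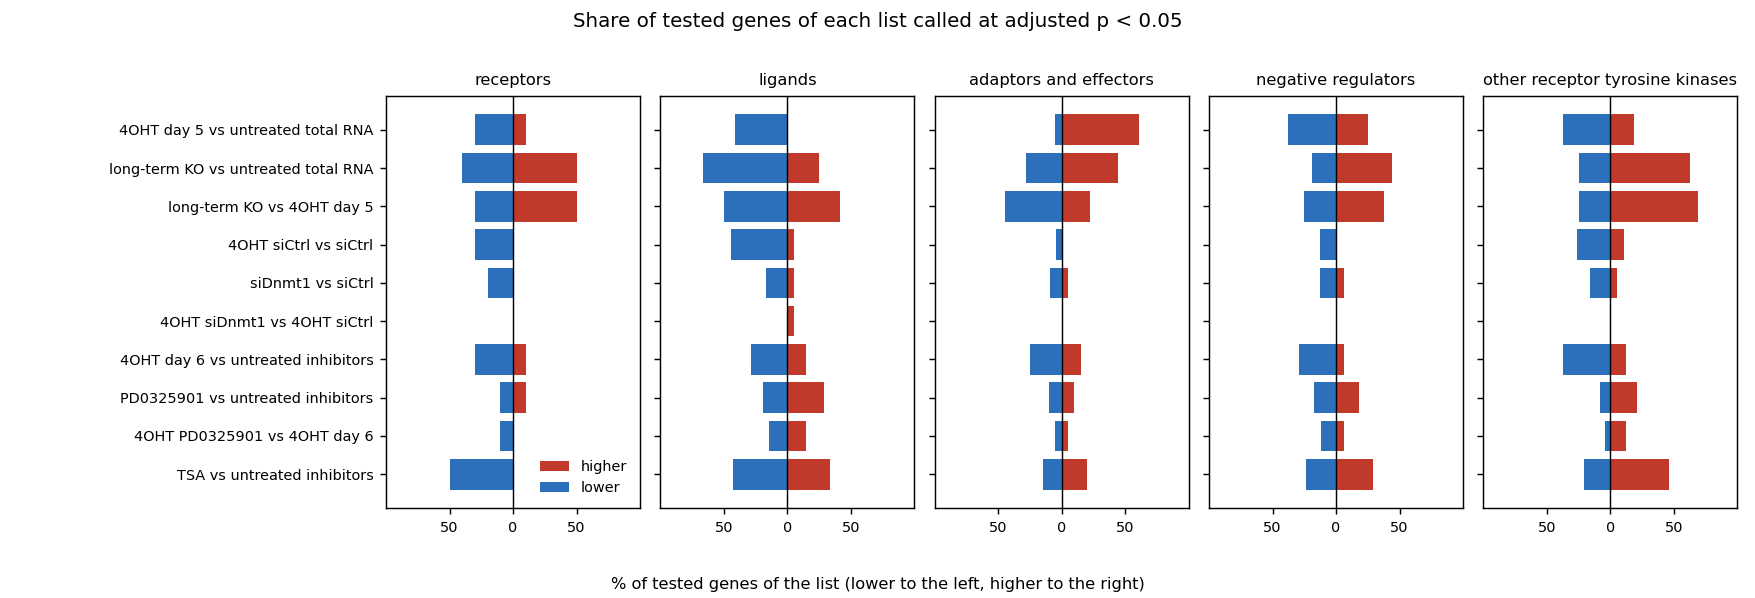
Share of the tested genes of each list (percent) called higher (right, red) or lower (left, blue) by limma in the 10 comparisons, for the 10 receptors, their ligands, adaptors and effectors, negative regulators and other receptor tyrosine kinases. At 4OHT day 5, 5 of 12 ligands fell while 11 of 18 adaptors and effectors rose.

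Across the 9 groups of the siRNA and inhibitor experiments, centred within each experiment, Pdgfra (SD 1.54 on the log2 scale) and Pdgfrb (SD 1.13) varied most of the 10, and Fgfr1 (0.175) and Insr (0.148) varied least. Of 10268 genes compared, those most like Pdgfra over these 9 group means were Ssbp4 (r = 0.968), Fdft1 (r = 0.964) and Nr4a1 (r = 0.963). Those most like Pdgfrb were Calm2 (r = 0.992), Pcdh18 (r = 0.988) and Gfpt1 (r = 0.984). Among the receptors the highest correlation was that of Fgfr1 and Ddr2 (r = 0.93) and the lowest that of Fgfr2 and Egfr (r = -0.54). These values are descriptions over points that share libraries and depth.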

How the data were processed

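RNA-seq of 27 libraries was compared within 3 experiments. Alignment by the authors used TopHat2 2.0.12 and the mm9 build, each library was assembled with Cufflinks, and the deposited values are FPKM with a 95% interval and a status. The deposited files hold no counts, so the reads behind a value cannot be given (the methods state a read number for the total RNA libraries), and precision is given by these intervals: of 270 receptor values, 7 have an interval that reaches 0 and 1 has a status other than OK. In total RNA tables a receptor was the row covering at least 95% of its locus.

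A gene was tested if the number of libraries in which it reached 1 FPKM was no smaller than the smallest group. Tests were made on log2(FPKM + 0.1) with limma 3.58.1 (trend) in R 4.3.3, with all groups of an experiment in the fit and Benjamini-Hochberg adjustment over all genes tested. Tables were read with Python 3.11.15 and pandas 2.3.3. The fit was tested on simulated data, where 96 (total RNA), 64 (siRNA) and 57 (inhibitors) of 100 genes changed by a log2 of 1 were recovered. The changed genes were drawn from those of higher mean FPKM, in the first comparison of each experiment. Recovery at low levels, such as that of Fgfr2 in total RNA, was therefore not measured. Alternatives were other pseudocounts, filters, scalings and fits, a replicate block and leaving out each library.

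All 10 receptors are named, as are up to 4 genes a list and comparison by lowest adjusted p, and the 3 genes most correlated with each of the 2 most variable receptors. Members and lists were chosen with earlier results of these data known. Another 2 deposited tables hold the authors' own comparisons and were not used.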

Additional observations from a re-analysis of the deposited data

Results flagged for a closer look

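For 8 of the 10 receptors the difference from untreated cells in long-term KO cells was not the one seen at 4OHT day 5. It was tested by comparing both 4OHT groups directly in limma, which removes the shared untreated libraries. Such differences were common: of all tested genes 36.0% were called higher and 30.5% lower in that comparison. The long-term minus the day 5 difference was log2 3.13 for Pdgfrb, which fell at day 5 and rose in long-term KO cells, and log2 -0.82 for Axl, which rose at day 5 and fell later. It was -1.34 for Pdgfra and -0.46 for Ddr2, which lay lower at the later time, and 1.38 for Fgfr2, which lay higher. Smaller differences were those of Met (0.23), Fgfr1 (0.27, adjusted p = 0.0456) and Insr (0.29, adjusted p = 0.0491). Those of Fgfr1 and Insr each lost the call in 10 of 17 alternatives. The rise of Axl at day 5 against untreated cells lost its call in 9 of 16. The groups also differ in time in culture, which cannot be told apart from time since 4OHT.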

How the results depend on the processing

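No called receptor changed direction under any alternative. Of the 38 calls, 12 were never lost: Ddr2 with TSA, Fgfr2 with PD0325901 and in both long-term KO comparisons, Pdgfra in the 3 total RNA comparisons and in 4OHT siCtrl, and Pdgfrb in both long-term KO comparisons, at 4OHT day 6 and with TSA. Requiring a fold change of at least 2 left 1 receptor called at 4OHT day 5 (4 without that limit), 3 in long-term KO against untreated (9), 3 against day 5 (8), 1 with PD0325901 (2), 0 with PD0325901 on top of 4OHT (1) and 2 with TSA (5). Matching locus ends within 1% left 2 calls at day 5, with 7 receptors having a value. For siDnmt1 against siCtrl (2 calls), no filter, median-ratio scaling and quantile normalization each left 1, and a fit of the groups compared gave 5. Such a fit left 1 of 3 calls for 4OHT siCtrl and 0 of 1 for 4OHT PD0325901 against 4OHT day 6, and median-ratio scaling left 1 of 2 for PD0325901. The causes were not tested.

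Leaving out 1 library at a time gave 3 to 4 calls at day 5, 9 to 10 in long-term KO against untreated, 6 to 7 against day 5, 1 to 5 for 4OHT siCtrl, 0 to 0 for siDnmt1, 0 to 3 for 4OHT siDnmt1 against 4OHT siCtrl, 2 to 3 at 4OHT day 6, 1 to 2 with PD0325901, 0 to 1 with PD0325901 on top of 4OHT, 3 to 4 with TSA, and 0 to 2 and 0 to 0 for the interactions with siDnmt1 and PD0325901. Where this left 1 library in a group, it was assumed to vary like the others.

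Over all genes, calls ranged from 304 to 3740 at day 5 (3331 in the reported fit), 1264 to 7087 in long-term KO against untreated (6049), 1142 to 6987 against day 5 (5921), 120 to 2935 for 4OHT siCtrl (1464), 89 to 3746 for siDnmt1 (845), 28 to 2411 for 4OHT siDnmt1 against 4OHT siCtrl (218), 848 to 3245 at 4OHT day 6 (2851), 370 to 1871 with PD0325901 (1571), 103 to 906 with PD0325901 on top of 4OHT (784) and 3668 to 8096 with TSA (6389). They ranged from 11 to 724 for the siDnmt1 interaction (21) and from 33 to 164 for that of PD0325901 (84). Median-ratio scaling gave 571 higher and 857 lower for 4OHT siCtrl (769 and 695 as reported), 391 and 352 for siDnmt1 (331 and 514) and 29 and 24 for the PD0325901 interaction (60 and 24). Quantile normalization gave 336 and 337 for siDnmt1 and 394 and 411 for 4OHT PD0325901 against 4OHT day 6 (487 and 297).

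The labels do not say that a replicate number marks a shared culture or day. Deviations of same-numbered libraries from their group means correlated between -0.0402 and 0.118 in total RNA, -0.0679 and 0.0322 in siRNA and -0.0245 and 0.253 in inhibitor libraries. The inhibitor experiment was mixed: the PD0325901, 4OHT day 6 and 4OHT PD0325901 groups correlated with each other at 0.206 to 0.253, a hint of pairing among them, while untreated and TSA libraries correlated with these and with each other at no more than 0.0356. With the replicate number as a block, 1 receptor was called for siDnmt1 against siCtrl instead of 2, with Pdgfrb at adjusted p = 0.0800. The block also ended the calls of Axl at day 5 (adjusted p = 0.0902) and Igf1r in 4OHT siCtrl (0.0619), and it added Fgfr1 at day 5 (0.0407), Igf1r in long-term KO against untreated cells (0.0203) and Pdgfra with PD0325901 (0.0282). It changed no other receptor call.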

Other observations

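Dusp6, Errfi1, Lrig1 and Fgfr2 can be read side by side in long-term KO cells and with PD0325901, comparisons with separate controls. Dusp6 fell in long-term KO cells (log2 -1.58, SE 0.04, adjusted p = 2.58e-08) and with PD0325901 (log2 -2.85, SE 0.38, adjusted p = 0.00402). Errfi1 and Lrig1 fell and Fgfr2 rose in both. At 4OHT day 6 Errfi1 also fell (log2 -1.03, SE 0.18, adjusted p = 0.00745), and Dusp6 stood at a mean of 46.7 FPKM against 45.5 FPKM in untreated cells (adjusted p = 0.969). These genes were set together after their values were seen, and a shared cause was not tested. Among the other receptors Axl fell in both, while Pdgfrb rose in long-term KO cells (log2 2.80) and not with PD0325901 (log2 -0.04). Of 16 negative regulators tested in total RNA, 7 rose and 3 fell in long-term KO cells. Of 17 tested in inhibitor libraries, 3 rose and 3 fell with PD0325901.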
